A study of Arabidopsis thaliana with 15 samples.

Results

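Root hair expansins and peroxidases are cell wall proteins made in the epidermal cells that grow the hairs of the root. The members were a list of 9 Arabidopsis genes, namely the expansins EXPA7 and EXPA18 and the peroxidase loci AT1G05240, AT1G30870, AT1G34510, AT3G49960, AT4G26010, AT5G22410 (RHS18) and AT5G67400 (RHS19). A listed gene was measured where a probe set was annotated to exactly 1 gene. This held for 6 of the 9, among 16548 genes measured in all, and these were both expansins and 4 of the 7 peroxidase loci. AT1G05240, RHS18 and RHS19 were not analysed here. Each measured member had 1 probe set, and dim genes were kept in the fit.

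A root hair is a tube that grows out of a single epidermal cell. Expansins loosen the bonds between cellulose and other wall polymers, so that a wall under pressure can stretch, and EXPA7 and EXPA18 are textbook markers of hair cells. Class III peroxidases are secreted enzymes that use hydrogen peroxide to link wall proteins and phenolics, which stiffens a wall, and that can also form reactive oxygen, which can loosen it.

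Gene expression was measured with Affymetrix AraGene 1.0 ST arrays in whole roots of 10-day-old seedlings grown in 24 h light. All groups carried the same transgene, pCaMV35S:14-3-3κ:GFP, a fusion of a 14-3-3 protein with green fluorescent protein driven by the viral 35S promoter, in the cultivar Wassilewskija, so no group lacked it. Seedlings were fixed in RNALater on a C-9 aircraft, which flies parabolas that alternate between low and raised gravity load. The groups were level flight before the parabolas (n = 4 arrays), and fixation after parabola 1 (n = 4), parabola 3 (n = 4) and parabola 10 (n = 3). The root pools of a group came from 1 fixation tube, so tube and group cannot be told apart, and p-values measure only the spread between pools of a tube. The design asks which transcripts differ from level flight after each number of parabolas. In whole roots, fewer hair cells and less RNA per hair cell cannot be told apart.

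Arrays of a group correlated at 0.989 to 0.994 over the tested genes, and the array medians of those genes lay between 3.65 and 3.70 on the log2 scale. On this scale a difference of 1 is a fold change of 2. Probe sets with no annotated gene had array medians of 3.84 to 3.92 in level flight, 3.93 to 4.02 after parabola 1, 3.78 to 3.98 after parabola 3 and 3.69 to 3.85 after parabola 10. These medians moved with the groups, and the range after parabola 1 overlapped neither with level flight nor with parabola 10. None of the 7 measured reference genes of 15 listed passed the test in any of the 6 contrasts, by limma with Benjamini-Hochberg adjustment. At an unadjusted p under 0.05, at most 1 of those 7 passed in a contrast. Of all tested genes, 1.17% to 14.6% passed the adjusted threshold in a contrast. The unadjusted shares were 19.7% after parabola 1, 14.5% between parabolas 3 and 1 and 12.8% between parabolas 10 and 3.

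EXPA7 was the member that rose against level flight. Its log2 expression on the level flight arrays was 5.57, 5.71, 5.52 and 5.89, and after parabola 1 it was 6.18, 5.73, 5.99 and 6.03. After parabola 3 the arrays read 5.95, 6.54, 6.05 and 6.36, and after parabola 10 they read 6.52, 6.66 and 6.26. Every array of parabola 3 and of parabola 10 was above the highest level flight array, and parabola 1 overlapped with level flight. The group means were 5.67 ± 0.16 (SD, n = 4) in level flight, 5.98 ± 0.19 (SD, n = 4) after parabola 1, 6.22 ± 0.27 (SD, n = 4) after parabola 3 and 6.48 ± 0.21 (SD, n = 3) after parabola 10.

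**Figure D1:**
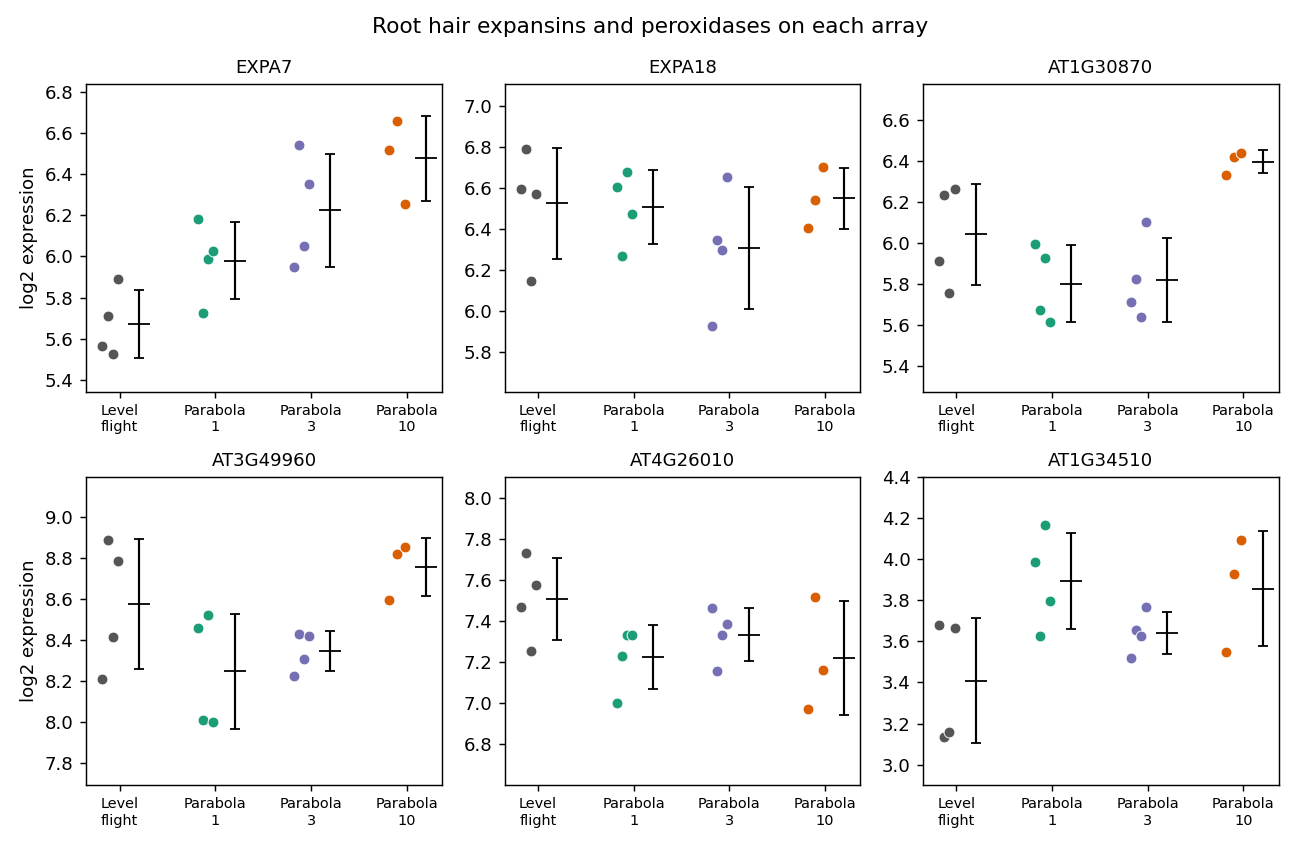
Log2 expression (vertical axis, the same span in each panel) of the 6 measured members on each array, by flight group (horizontal axis). Points are arrays and the bars beside them are the group mean ± SD. EXPA7 runs from a mean of 5.67 in level flight to 6.48 after parabola 10, and the 3 arrays of AT1G30870 after parabola 10 lie above all its other arrays.

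After parabola 3, EXPA7 was 1.47-fold above level flight, a log2 change of 0.55 ± 0.14 (SE, 95% interval 0.26 to 0.85, limma adjusted p = 0.0145). After parabola 10 it was 1.75-fold above, a log2 change of 0.81 ± 0.15 (SE, 95% interval 0.49 to 1.12, limma adjusted p = 0.00118). Both contrasts use the same 4 level flight arrays. Without replicate 2 of parabola 3, the parabola 3 change was 0.45 and did not pass (limma adjusted p = 0.0567). After parabola 1 the log2 change was 0.31 ± 0.14 (SE), with a limma adjusted p of 0.223. The order of the means was parabola 10, parabola 3, parabola 1, level flight. No pair of neighbours in that order passed, with differences of 0.25 (limma adjusted p = 0.516), 0.24 (0.456) and 0.31 (0.223). Parabola 10 was 0.50 ± 0.15 (SE) above parabola 1 with arrays that did not overlap, and the limma adjusted p was 0.0785. With the array median of the probe sets that have no gene as a covariate, EXPA7 stayed past the threshold after parabola 3 (0.51, limma adjusted p = 0.0115) and after parabola 10 (0.58, 0.0306). Under the same covariate, EXPA7 also passed after parabola 1 (0.52, 0.0478), and the difference between parabola 10 and parabola 1 was 0.06.

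EXPA18, the other hair cell expansin, passed in none of the 6 contrasts by limma, and none of its 6 unadjusted p-values was under 0.05. Its arrays read 6.60, 6.79, 6.15 and 6.57 in level flight, and 6.60, 6.27, 6.68 and 6.48 after parabola 1. After parabola 3 they read 5.93, 6.35, 6.30 and 6.66, and after parabola 10 they read 6.41, 6.54 and 6.70. All 4 groups overlapped. Its means ± SD were 6.53 ± 0.27 in level flight, 6.51 ± 0.18 and 6.31 ± 0.30 after parabolas 1 and 3 (n = 4 each), and 6.55 ± 0.15 after parabola 10 (n = 3). The 95% intervals of its log2 change were −0.34 to 0.30 after parabola 1, −0.54 to 0.10 after parabola 3 and −0.32 to 0.37 after parabola 10. The estimate after parabola 10 was 0.02 (limma adjusted p = 0.947).

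The gap between the expansins was therefore compared array by array, a comparison chosen after their values had been seen. EXPA7 minus EXPA18 ran from −1.08 to −0.62 in level flight, from −0.69 to −0.42 after parabola 1, from −0.30 to 0.19 after parabola 3 and from −0.45 to 0.12 after parabola 10. The parabola 3 and parabola 10 arrays lay above all level flight arrays, and the parabola 1 arrays overlapped with them. The mean gap was 0.33 higher than in level flight after parabola 1 (exact permutation test, two-sided, p = 0.0857), 0.77 higher after parabola 3 (exact p = 0.0286) and 0.78 higher after parabola 10 (exact p = 0.0571). The last pair of p-values are the smallest that 4 against 4 and 3 against 4 arrays allow. Adjusted over the 3 comparisons each exact p was 0.0857, which misses 0.05, and each gap was higher than in level flight on average.

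AT1G30870 was the only measured peroxidase member to pass in a contrast. Its arrays read 5.91, 6.24, 5.76 and 6.26 in level flight and 6.00, 5.67, 5.92 and 5.62 after parabola 1. They read 5.71, 5.82, 5.64 and 6.10 after parabola 3, and 6.33, 6.42 and 6.44 after parabola 10. Every parabola 10 array was above every other array, while level flight, parabola 1 and parabola 3 overlapped. Its means ± SD were 6.04 ± 0.25, 5.80 ± 0.19 and 5.82 ± 0.20 in level flight and after parabolas 1 and 3 (n = 4 each), and 6.40 ± 0.06 after parabola 10 (n = 3).

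Between parabola 1 and parabola 10, AT1G30870 rose 1.51-fold, a log2 difference of 0.59 ± 0.14 (SE, 95% interval 0.30 to 0.89, limma adjusted p = 0.0265). Of its other contrasts, parabola 10 against parabola 3 gave 0.58 ± 0.14 (SE, limma adjusted p = 0.0568) and parabola 10 against level flight gave 0.35 ± 0.14 (SE, 0.11). Against level flight, parabolas 1 and 3 gave −0.24 (limma adjusted p = 0.347) and −0.22 (0.325). The call between parabolas 10 and 1 was lost without replicate 2 or 4 of parabola 1 (limma adjusted p = 0.0778 and 0.0674) and without replicate 1, 2 or 3 of parabola 10 (0.0629, 0.0927 and 0.0581). With the median of the probe sets without a gene as a covariate, the difference was 0.46 and the limma adjusted p was 0.749. That median separates these groups, as given above.

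AT3G49960 followed the same order of group means as AT1G30870, with parabola 10 first, then level flight, parabola 3 and parabola 1. Its arrays read 8.21, 8.89, 8.41 and 8.79 in level flight and 8.46, 8.01, 8.52 and 8.0 after parabola 1. They read 8.22, 8.43, 8.31 and 8.42 after parabola 3 and 8.59, 8.82 and 8.85 after parabola 10. The parabola 10 arrays were above all arrays of parabolas 1 and 3 and overlapped with level flight. The log2 difference was 0.51 ± 0.16 (SE, limma adjusted p = 0.0966) against parabola 1, 0.41 ± 0.16 (SE, 0.278) against parabola 3 and 0.18 ± 0.16 (SE, 0.524) against level flight, so none passed.

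AT4G26010 had its highest mean in level flight, where its arrays read 7.47, 7.73, 7.25 and 7.58. They read 7.0, 7.23, 7.33 and 7.33 after parabola 1, 7.46, 7.15, 7.33 and 7.38 after parabola 3, and 6.97, 7.52 and 7.16 after parabola 10. All groups overlapped. Its log2 differences from level flight were −0.29 (95% interval −0.56 to −0.01, limma adjusted p = 0.222) after parabola 1, −0.17 (−0.45 to 0.10, 0.451) after parabola 3 and −0.29 (−0.58 to 0.00, 0.192) after parabola 10.

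AT1G34510 gave the dimmest signal against its arrays' medians of 3.65 to 3.70. Its arrays read 3.68, 3.13, 3.16 and 3.66 in level flight and 3.99, 3.63, 4.17 and 3.80 after parabola 1. They read 3.52, 3.65, 3.63 and 3.77 after parabola 3 and 3.55, 3.93 and 4.09 after parabola 10. Each group overlapped with level flight, whose own arrays fell into a higher and a lower pair. Its log2 differences from level flight were 0.49 ± 0.15 (SE, limma adjusted p = 0.0593) after parabola 1, 0.23 ± 0.15 (SE, 0.383) after parabola 3 and 0.45 ± 0.16 (SE, 0.0813) after parabola 10. After parabola 1 it passed when arrays were centred on their median (0.50, limma adjusted p = 0.0479), after a repeated quantile normalization (0.50, 0.0474) and with array weights (0.48, 0.041). Leaving out replicate 1 or 4 of level flight, replicate 2 of parabola 1 or replicate 1 of parabola 10 also brought it past, at limma adjusted p-values of 0.0406, 0.0418, 0.0362 and 0.0431. These were 7 of 26 alternatives, and it did not pass in the rest. The limma adjusted p was 0.169 with the covariate, 0.0766 with a replicate block and up to 0.181 with an array left out.

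**Figure D2:**
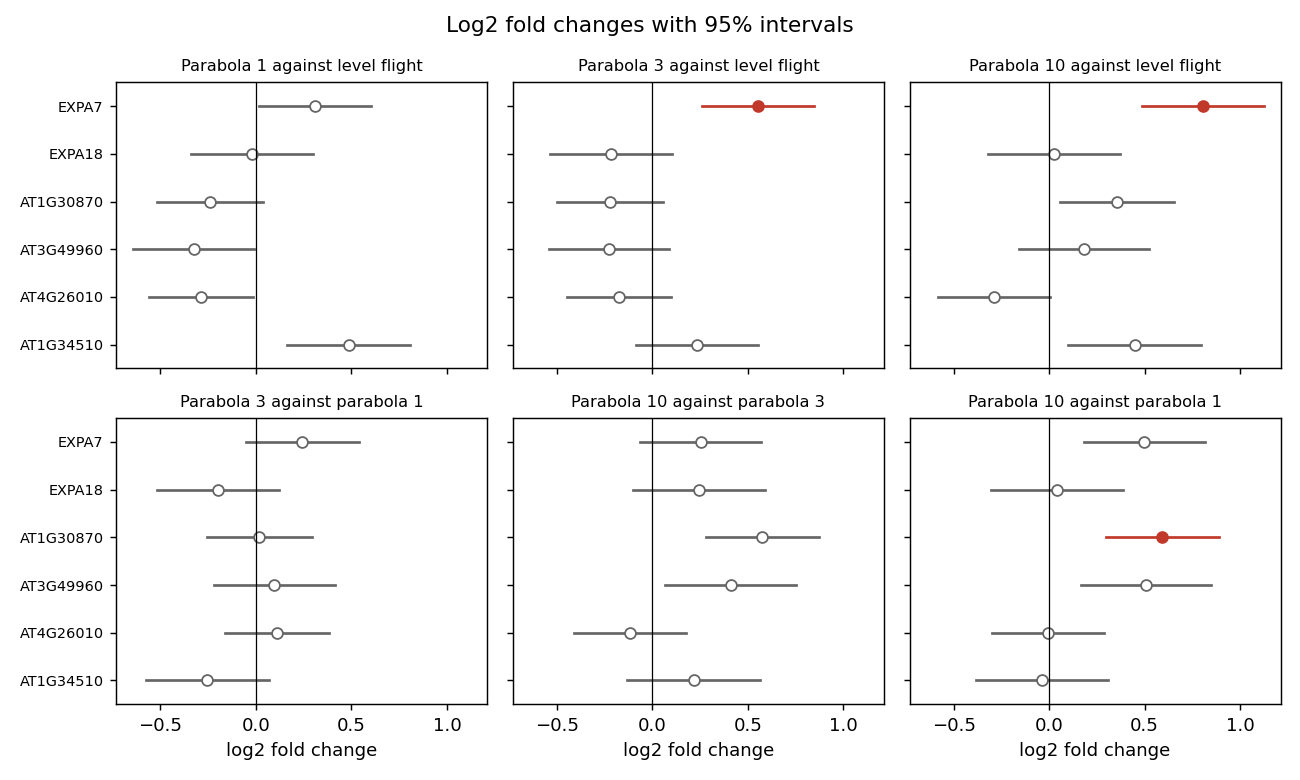
Log2 fold change of each measured member (horizontal axis) in the 6 contrasts, 1 per panel. Points are limma estimates, lines are 95% intervals, and filled red marks passed at an adjusted p under 0.05. EXPA7 passed after parabolas 3 and 10, and AT1G30870 passed between parabolas 10 and 1.

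Counted by contrast, none of the 6 members passed after parabola 1, where 8.33% of all tested genes did by limma. At an unadjusted p under 0.05 it was 4 of 6, namely EXPA7 and AT1G34510 with higher values and AT3G49960 and AT4G26010 with lower ones, against 19.7% of all genes. After parabola 3, 1 of 6 passed upward, against 11.2% of all genes in either direction and 4.48% upward. After parabola 10, 1 of 6 passed upward, against 14.6% of all genes in either direction and 7.54% upward. Between parabolas 10 and 1, 1 of 6 passed upward, against 3.56% of all genes in either direction and 1.73% upward. With 6 members a single call is a large share of them, and these counts were not tested. Of all genes, 287 were called higher and 302 lower between parabolas 10 and 1. Without replicate 1 or 2 of parabola 1, or replicate 1 or 2 of parabola 10, these counts were 115 to 171 and 143 to 193. Without replicate 3 of parabola 10 they were 433 and 328.

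Between parabolas 3 and 1 no member passed by limma, and none of the 6 had an unadjusted p under 0.05. The shares over all genes were 1.72% for the adjusted and 14.5% for the unadjusted threshold. Between parabolas 10 and 3 no member passed either, against 1.17% of all genes, and 2 of 6 (AT1G30870 and AT3G49960) had an unadjusted p under 0.05, against 12.8% of all genes. Both shares of adjusted calls moved up or down with single arrays. Without replicate 1 of parabola 3, 149 genes were higher and 235 lower between parabolas 3 and 1. Without replicate 3 of parabola 10, 151 were higher and 96 lower between parabolas 10 and 3. Other arrays lowered the counts. Between parabolas 3 and 1, 126 genes higher and 159 lower became 56 to 89 and 75 to 100 without replicate 1, 2 or 3 of parabola 1 or replicate 2, 3 or 4 of parabola 3. For parabola 10 against parabola 3, 98 and 95 became 33 to 64 and 56 to 70 without replicate 3 or 4 of parabola 3 or replicate 1 or 2 of parabola 10. limma's F-test of equal means in all 4 groups called 2 of 6 members, where it called 15.7% of all genes. The called members were EXPA7 (F-test, limma adjusted p = 0.00475) and AT1G30870 (0.0196). That test also takes in differences between parabolas, and AT1G30870 passed in none of its single contrasts with level flight.

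Groups that did not overlap were found for 0 of 6 members after parabola 1, 1 after parabola 3 and 2 after parabola 10, where 14%, 15.8% and 24.2% of all genes had such groups against level flight. Between parabolas 3 and 1 it was 0 of 6, against 7.54% of all genes. Between parabolas 10 and 3 it was 2 of 6, against 9.67%, and between parabolas 10 and 1 it was 3 of 6, against 14.7%. The median log2 change of the 6 members was −0.13 after parabola 1, −0.20 after parabola 3 and 0.27 after parabola 10. The medians over all genes in those contrasts were 0.01, 0.03 and 0.04. Of the 6 members, 4 had lower means than in level flight after parabolas 1 and 3, and 5 had higher means after parabola 10. Among all these differences from level flight, only those of EXPA7 after parabolas 3 and 10 passed by limma. The counts of directions were not tested.

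Across the 15 arrays, AT1G30870 and AT3G49960 had the highest correlation of the 15 member pairs. Their Pearson r was 0.88 (permutation p = 3e-05, adjusted 0.00045 over 15 member pairs) and Spearman's rho was 0.88 (permutation p = 6e-05, adjusted 0.0009). Without the 2 arrays farthest from the median of AT1G30870, r was 0.83. Within groups, between the deviations from each group's mean, r was 0.81, a value that was not tested. The next highest pair was EXPA18 with AT1G30870, at an r of 0.61 (permutation p = 0.0147, adjusted 0.11). No other pair passed the adjustment, and EXPA7 and EXPA18 had an r of 0.14 (permutation p = 0.614, adjusted 0.708). Between deviations from group means, r was 0.49 for EXPA7 with EXPA18, 0.76 for EXPA18 with AT1G30870 and 0.60 for EXPA18 with AT3G49960, values that were not tested. The permutations moved arrays freely between the flight groups, though arrays of a group share a tube. These p-values therefore also take in shifts between groups. The pairs share the arrays and their normalization.

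**Figure D3:**
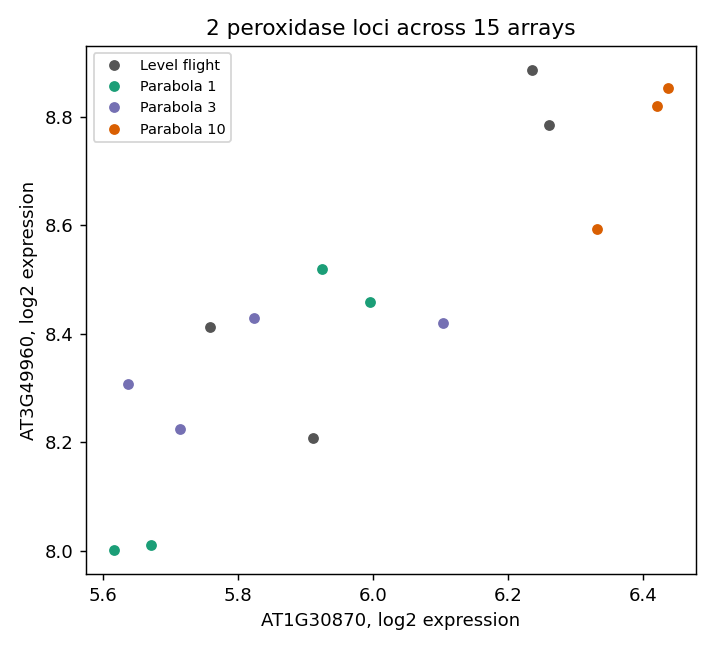
Log2 expression of AT3G49960 (vertical axis) against that of AT1G30870 (horizontal axis) on the 15 arrays, coloured by flight group. Each point is an array. The points rise together (r = 0.88), and the 3 parabola 10 arrays lie at the right, at 6.33 to 6.44 for AT1G30870.

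The genes most like the members in pattern were sought by Pearson's r over the 15 arrays. Nearest to the mean of the 6 centred members were AT3G09925 (r = 0.88), IAA31 (0.86), a gene of the Aux/IAA family of auxin response repressors, AT2G47540 (0.85), AT4G30640 (0.83) and AT2G38950 (0.82). Of these 5, IAA31 passed between parabola 10 and level flight, with means of 3.74 and 3.12, near and under the array medians (limma adjusted p = 0.0103). Nearest to EXPA7 were AT4G16790 (0.91), AT4G35610 (0.91) and AT4G33730 (0.90). Of these, AT4G16790 rose from 3.70 to 4.74 between level flight and parabola 10 (log2 change 1.03, limma adjusted p = 1.16e-05), with means of 4.19 and 4.31 between them. AT4G33730 rose from 4.94 to 6.02 (1.07, 0.000909). In level flight AT4G16790 lay near the array medians. AT4G35610 had group means of 2.59 to 2.87, under the array medians, and did not pass between parabola 10 and level flight (limma adjusted p = 0.0813). Nearest to EXPA18 were AT3G16850 (0.86), AT2G34250 (0.86) and AT2G24300 (0.78), none of which passed between parabola 10 and level flight. These values are descriptions of the closest among 16548 genes. The genes were chosen for likeness to the members on the same arrays, so their p-values are not separate evidence of a change.

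Few other genes of the hair cell program were measured. Of 46 listed genes of hair growth, 3 were measured and none passed in any of the 6 contrasts by limma. Of all genes, 1.17% to 14.6% passed in a contrast. At an unadjusted p under 0.05, at most 1 of the 3 hair growth genes passed in a contrast. The share of all genes at that threshold was 19.7% after parabola 1, 14.5% between parabolas 3 and 1 and 12.8% between parabolas 10 and 3. The 3 hair growth genes were SCN1, which keeps hair outgrowth to a single site, the receptor kinase gene FER, and XTH26, a gene of xyloglucan remodelling. Their log2 changes after parabola 10 were −0.03 (limma adjusted p = 0.866), 0.13 (0.475) and 0.42 (0.16). The mean log2 level of the 3 genes was 7.22 to 7.49 on the level flight arrays, 7.23 to 7.48 after parabola 1, 7.32 to 7.38 after parabola 3 and 7.52 to 7.59 after parabola 10. The parabola 10 arrays of this mean thus lay above all others, though none of the 3 genes passed. Among all single genes, the parabola 10 arrays did not overlap with level flight in 24.2%, with parabola 1 in 14.7% and with parabola 3 in 9.67%. These shares hold both directions. The part of this mean in the members' changes was not tested.

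Of 12 listed hair regulators, 3 were measured, namely AT2G14760, AT5G43175 and TRY, a MYB repressor that helps to pattern hair and non-hair cells. AT5G43175 rose from a mean of 2.56 in level flight to 3.45 after parabola 1 (log2 change 0.89 ± 0.16 SE, limma adjusted p = 0.00169). It was at 3.26 after parabola 3 (0.70 ± 0.16 SE, 0.00943) and 3.28 after parabola 10 (0.72 ± 0.18 SE, 0.00919). The parabola 10 call was lost without replicate 2 of that group (limma adjusted p = 0.0618). All 4 of its group means lay under the array medians of 3.65 to 3.70 and of the probe sets with no gene, so the size of its change is uncertain. TRY fell by 0.56 on the log2 scale after parabola 10 (± 0.15 SE, limma adjusted p = 0.0171), a call lost without replicate 1 of level flight (0.0588), without replicate 1 of parabola 10 (0.089) and with the covariate (0.0586). Its change after parabola 3 was −0.44 (limma adjusted p = 0.049), and this call was lost in 16 of 26 alternatives, at adjusted p-values of up to 0.151. AT2G14760 passed in no contrast by limma, with 6 unadjusted p-values all above 0.05. Of all genes, 8.33%, 11.2% and 14.6% were called in either direction after parabolas 1, 3 and 10.

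Markers of other root cells were sparse too, so a change in the share of cell types was not tested. None of 6 markers of non-hair epidermis, 6 of xylem and phloem and 11 of shoot was measured. The 1 measured of 5 endodermis and cortex markers lay between 1.85 and 2.40 on all arrays, under the array medians, and passed in no contrast (lowest limma adjusted p 0.151). Of 9 markers of root cap, meristem and lateral root 2 were measured. LBD29, an auxin-induced gene of lateral root formation, rose after parabola 10 (0.73 ± 0.14 SE, limma adjusted p = 0.00181), and LBD16 gave −0.04 (0.914). The mean of both ran from 6.13 to 6.48 on the level flight arrays and from 6.41 to 7.05 on the parabola 10 arrays, and its part in the members' changes was not tested.

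Other expansins were taken by symbol or by a synonym naming expansin, and 22 of 36 were measured. The synonyms brought in PNP-A and AT4G30380, which have no expansin symbol, and AT4G30380 is among the 22. After parabola 1, 2 of 22 rose and 5 fell, against 3.47% and 4.85% of all genes. After parabola 3, 2 rose and 3 fell, against 4.48% and 6.7% of all genes. After parabola 10, 4 rose and 1 fell, against 7.54% and 7.11% of all genes. These small counts moved with single arrays. The 2 that rose after parabola 1 were 1 without replicate 1, 2 or 4 of level flight or of parabola 1, and 0 with the covariate, which also took the 5 that fell to 3. The 3 that fell after parabola 3 were 1 without replicate 1 of level flight or replicate 2 of parabola 3. The 1 that fell after parabola 10 was joined by another without replicate 2 of level flight or replicate 4 of parabola 1. Their median log2 change in these contrasts was 0.00, 0.14 and 0.09, beside 0.01, 0.03 and 0.04 for all genes. EXPB1, a beta-expansin gene, fell in each, from a mean of 6.97 in level flight to 5.93, 5.60 and 5.75 after parabolas 1, 3 and 10, the last 2.33-fold lower (limma adjusted p = 0.000838). EXPA4, an alpha-expansin gene like EXPA7, rose 1.61-fold after parabola 1 (limma adjusted p = 0.00554), 1.90-fold after parabola 3 (0.000373) and 1.60-fold after parabola 10 (0.007). With the covariate, the EXPA4 call after parabola 1 was lost (0.0977). EXLB1, an expansin-like gene, shared the order of means of EXPA7, at 3.30, 3.35, 3.85 and 4.09 from level flight to parabola 10, and was called higher after parabola 10 (limma adjusted p = 0.000561), with level flight and parabola 1 means under the array medians. EXLA2, another expansin-like gene, fell 1.77-fold after parabola 1 (limma adjusted p = 0.00673) and 1.57-fold after parabola 3 (0.028), the latter lost without replicate 1 or 2 of level flight or replicate 2 or 3 of parabola 3 (0.0704 to 0.0951). Its means there, 3.45 and 3.63, were under the array medians. After parabola 10 EXLA2 did not pass (−0.17, 0.642). Whether EXPA7 differs from the rest of its family was not tested.

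**Figure D4:**
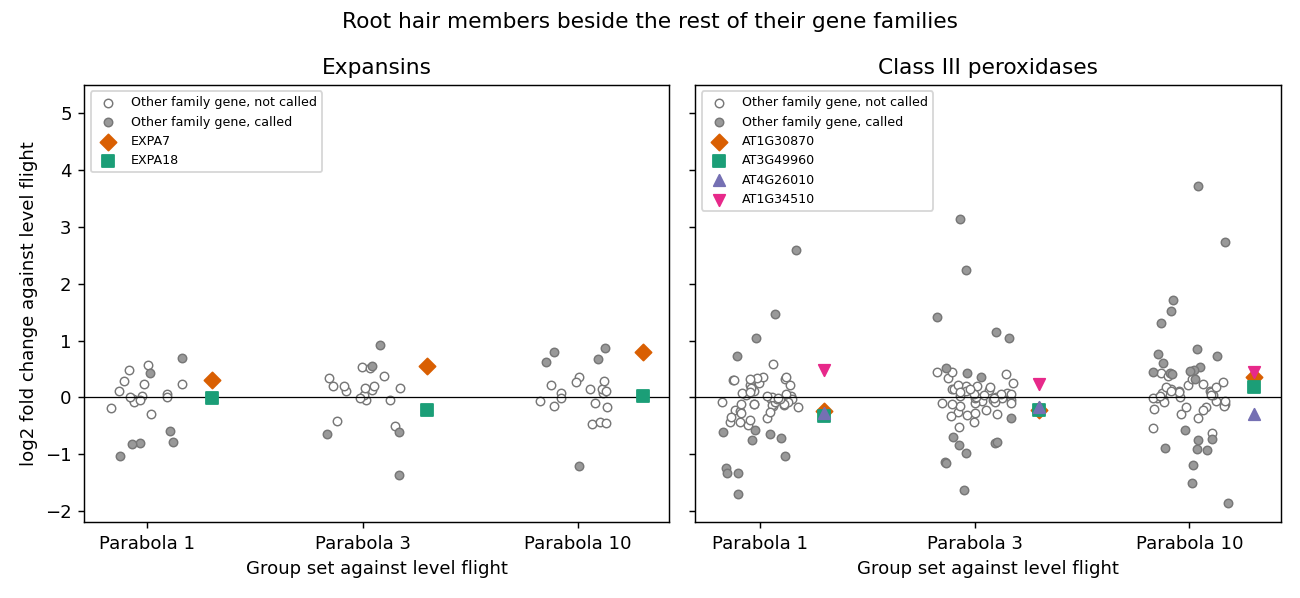
Log2 fold change against level flight (vertical axis) after parabolas 1, 3 and 10 (horizontal axis) for expansins (left) and class III peroxidases (right). Circles are other measured genes of the family, filled where limma's adjusted p was under 0.05, and coloured symbols are the members. The 4 peroxidase members lie between −0.33 and 0.49, inside the range of −1.87 to 3.72 of the 60 other peroxidases.

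Among the other class III peroxidases, 60 of 66 loci were measured. After parabola 1, 4 of 60 rose and 10 fell, against 3.47% and 4.85% of all genes. After parabola 3 it was 8 and 9, against 4.48% and 6.7% of all genes. After parabola 10 it was 16 and 9, against 7.54% and 7.11% of all genes. Without replicate 1 of parabola 10 the 16 that rose were 10, and with the covariate they were 8. Against level flight, the 60 loci had median log2 changes of −0.08, 0.01 and 0.09 after parabolas 1, 3 and 10. In that order, 46, 43 and 35 of them were not called. The 4 peroxidase members of hair cells had log2 changes against level flight between −0.33 and 0.49. The 60 other loci spanned −1.87 to 3.72, and a range widens with the number of genes in it. At the upper end AT1G49570 was 13.1-fold and AT5G19890 6.64-fold above level flight after parabola 10, and AT4G37530 was 2.47-fold above. AT5G15180 was 2.85-fold lower, with limma adjusted p-values of 6.79e-10, 2.03e-08, 9.41e-06 and 7.19e-06 for the 4 loci in that order. A match of gene symbols and synonyms to peroxidase names gave 14 genes, of which P40 and PER1 are not on the locus list. The 7 of them that were measured are all among the 60 loci, so their calls are counted above too. Of these 7, 1 was higher and 1 lower after parabola 1, against 3.47% and 4.85% of all genes. After parabola 3 it was 2 higher and none lower, against 4.48% and 6.7%. After parabola 10 it was 2 higher and 1 lower, against 7.54% and 7.11%. Among these AT5G64120 rose 2.66-fold after parabola 3 (limma adjusted p = 0.00366) and Prx37 1.43-fold (0.00339). After parabola 10 AT2G41480 was 1.66-fold above level flight (limma adjusted p = 0.00283). PRXCA was called lower after parabola 10 (limma adjusted p = 0.000822), with means of 3.62 and 2.43 that both lay under the array medians, so no fold is given. The calls after parabola 1 were AT5G64120 upward and PRXCA downward. That of AT5G64120 was lost without replicate 1, 2 or 3 of level flight or replicate 3 or 4 of parabola 1 (0.053 to 0.104). That of PRXCA was lost without replicate 3 of level flight or replicate 2, 3 or 4 of parabola 1 (0.0531 to 0.0737). Between parabolas 10 and 1, the contrast in which AT1G30870 passed, 8 of the 60 loci rose and none fell. Of all genes, 1.73% were called higher there and 3.56% in either direction. Without replicate 1 of parabola 10 the 8 were 3. They were 5 without replicate 1 or 2 of level flight, replicate 1, 2 or 4 of parabola 1 or replicate 2 of parabola 10. With the covariate none of the 60 rose, in a fit that called 2 of all 16548 genes upward and 1 downward.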

How the data were processed

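The deposited values are log2 expression per probe set, per the file headers and values. TAIR10, R 4.0.0, RMA and the packages limma and oligo appear, without their roles, in the submitters' processing notes. RMA corrects background, scales arrays to one another and summarises probes, which can hide a shift shared by most genes.

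The table held 38408 rows for 15 arrays and 0 columns of other samples. Of these rows, 16722 carried exactly 1 gene, 759 several and 20927 none. The row with the highest mean was kept for 148 genes with more than 1 row, leaving 16548 genes. Names came from the platform annotation and a RefSeq table of TAIR10.1, to which 16574 rows matched by gene number. No coordinates are given, because that assembly is not the one the submitters name.

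All 15 arrays entered 1 fit of group means by lmFit and eBayes (limma 3.58.1, R 4.3.3), with 6 two-sided contrasts. P-values were adjusted by Benjamini-Hochberg over all 16548 genes within a contrast, and called at an adjusted p under 0.05. The script was tested on simulated data. Correlations used 100000 permutations in SciPy 1.17.1. The number of arrays limits the precision.

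The members and the gene lists were chosen with earlier results of these data known. The 73 class III peroxidase loci were listed from general knowledge after the data had been seen, because the annotation names few of them. From each list the text names up to 4 called genes, by the smallest F-test p. Likeness names 5 genes for the members' mean and 3 for each expansin. Alternatives were other scalings of the arrays, centring on the reference genes, leaving out the dimmest 25% of genes, all rows, the mean of a gene's rows, the arrays of a contrast's groups alone, trend and robust options, array weights, a replicate block, stricter thresholds and leaving out each array. The covariate, and the list counts under each alternative, were added after seeing the data.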

Additional observations from a re-analysis of the deposited data

Results flagged for a closer look

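AT1G30870 was picked out because its change against level flight differed between parabola groups by a direct test, parabola 10 minus parabola 1, which gave a log2 difference of 0.59 (limma adjusted p = 0.0265). The change was 0.35 after parabola 10 and −0.24 after parabola 1, and neither passed against level flight (limma adjusted p = 0.11 and 0.347). All 3 parabola 10 arrays were higher than all 4 parabola 1 arrays, and 14.7% of all genes had groups that did not overlap in this contrast. As given above, the call was lost when any of several single arrays was left out. It was also lost with the covariate (limma adjusted p = 0.749). None of the 18 member groups of 4 arrays held an array that stood apart by Dixon's test.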

How the results depend on the processing

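With 6 members, counts of calls moved by 1 at most. After parabola 1 the count was 0, and 1 with median centring, repeated quantile normalization, array weights or the covariate, and 0 to 1 when an array was left out. After parabola 3 it was 1, and 0 at an adjusted p under 0.01, and 0 to 1 with an array left out. After parabola 10 it was 1, and 1 to 2 with an array left out, the added gene being AT1G34510 without replicate 1 of parabola 10 (limma adjusted p = 0.0352). Between parabolas 3 and 1 it was 0 under all 28 alternatives. Between parabolas 10 and 3 it was 0, and 1 with trend and robust options (AT1G30870, limma adjusted p = 0.0437), and 0 to 1 with an array left out. Between parabolas 10 and 1 it was 1, and 0 at an adjusted p under 0.01 or with the covariate, and 0 to 1 with an array left out. Without replicate 3 of parabola 10 the called member was EXPA7 (limma adjusted p = 0.0461). The F-test count was 2, and 1 at an adjusted p under 0.01 or with the covariate, and 1 to 2 with an array left out. The cause of these moves was not tested, and no called value changed sign. With the replicate number as a block, EXPA7 gave 0.55 after parabola 3 (limma adjusted p = 0.0156) and 0.85 after parabola 10 (0.00131), and no member's call changed. The number did not pair the arrays, since deviations of 21 same-numbered pairs correlated at −0.08 to 0.11. Over all genes, centring on the reference genes turned the split after parabola 1 from 575 higher and 803 lower into 382 and 889, and 98 and 95 between parabolas 10 and 3 into 55 and 72. Testing all rows gave 1162 and 1386 after parabola 1, and 1269 and 1904 in place of 742 and 1108 after parabola 3. It gave 2019 and 2441 in place of 1247 and 1176 after parabola 10. Between parabolas 10 and 1 it gave 449 and 1076 in place of 287 and 302. The covariate left 366 and 550 after parabola 1, 632 and 704 after parabola 10, 30 and 22 between parabolas 3 and 1, 15 and 43 between parabolas 10 and 3, and 2 and 1 between parabolas 10 and 1. Fits of a contrast's groups alone gave 75 and 85, 27 and 42, and 153 and 213 in those last contrasts, and array weights gave 54 and 64 between parabolas 10 and 3. Dim signal limits AT1G34510, AT5G43175, PRXCA, IAA31, EXLB1, EXLA2, AT4G16790 and AT4G35610, whose values lie near or under the array medians in some or all groups.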
